A study of Mus musculus with 24 samples.

Results

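Mouse embryonic stem (ES) cells that lacked Dux were compared with ES cells that lacked both Dux and Smchd1, to measure what the loss of Smchd1 changed when DUX could not act. The comparison holds 6 of the 24 samples of the series: 3 of the Dux knockout (Dux KO) and 3 of the knockout of both genes (Double KO), all sequenced as total RNA depleted of ribosomal RNA. Both genotypes thus carried the Dux knockout, and the loss of Smchd1 was the labelled difference between them. The cells were grown without feeder cells on gelatin, in serum with leukaemia inhibitory factor (LIF). Wild-type cells (WT) and cells that lacked Smchd1 alone (Smchd1 KO), with 3 replicates each, entered 1 further test, on whether the effect of losing Smchd1 differed with and without Dux. How the knockouts were made, and whether the replicates of a genotype were separate clones, is not given in the sources used here.

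SMCHD1 is a chromatin protein of the structural maintenance of chromosomes family. It is known for keeping genes silent on the inactive X chromosome, in imprinted clusters and in gene arrays such as the Hox clusters and protocadherins. DUX, a transcription factor with 2 homeodomains, activates genes of the 2-cell embryo, among them the Zscan4 family. In ES cell cultures these genes are active in a small, changing fraction of the cells. In bulk RNA such as this, a lower level can mean fewer cells with a transcript or less transcript per cell, and the 2 cannot be told apart.

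Levels are CPM, counts per 1e6 counts, and depth was 13.2 to 15.6 (Dux KO) and 14.8 to 17.2 (Double KO) gene reads per sample in units of 1e6. Replicates of these genotypes varied far more than those of WT. Over genes, the SD between the log2 levels of replicates had a median of 0.30 in Dux KO and 0.31 in Double KO, against 0.12 in Smchd1 KO and 0.05 in WT (SD, standard deviation). The markers of ES cells were present throughout: the sum of 6 of them (Pou5f1, Sox2, Nanog, Zfp42, Esrrb and Utf1) was 2763, 2363 and 2123 CPM in Dux KO replicates 1 to 3 and 1564, 1932 and 2812 CPM in Double KO.

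Smchd1 transcript (ENSMUSG00000024054.5, chromosome 17) was 174, 191 and 213 CPM in the Dux KO samples and 71.0, 78.2 and 87.9 CPM in the Double KO samples. All 3 Double KO samples were below all 3 Dux KO samples, and transcript was still present in each. The means were 193 ± 19.6 and 79.0 ± 8.48 CPM (SD, n = 3), a log2 difference of -1.28 with a standard error of 0.18 on the log2(CPM + 0.5) scale. This was a 2.43-fold difference with an unadjusted p = 3.18e-05, but limma's Benjamini-Hochberg adjusted p over 15654 genes was 0.249. With the spread pooled over 4 genotypes the limma adjusted p was 0.0294, and DESeq2 gave an adjusted p = 4.04e-05. For the Dux knockout the transcript is a poor check, since the gene is nearly silent in WT as well (0.0983 ± 0.0517 CPM, SD, n = 3). The entry listed as Dux (ENSMUSG00000058537.2, which GENCODE M21 names AW822073) had 0.447 CPM in Dux KO replicate 1, 0.245 CPM in Double KO replicate 2 and no reads in the other 4 samples. Gm10807 (ENSMUSG00000075046.3, which GENCODE M21 names Duxf3) reached 0.149 CPM in Dux KO replicate 1 and 0.245 CPM in Double KO replicate 2. In Smchd1 KO, the entry listed as Dux had 0.833, 0.847 and 0.410 CPM, with a mean of 0.697 CPM against 0.0815 CPM in Double KO. Gm10807 had a mean of 0.405 CPM in Smchd1 KO against 0.122 CPM in Double KO. The related Duxbl had reads in Double KO replicate 2 alone, at 0.0612 CPM.

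**Figure D1:**
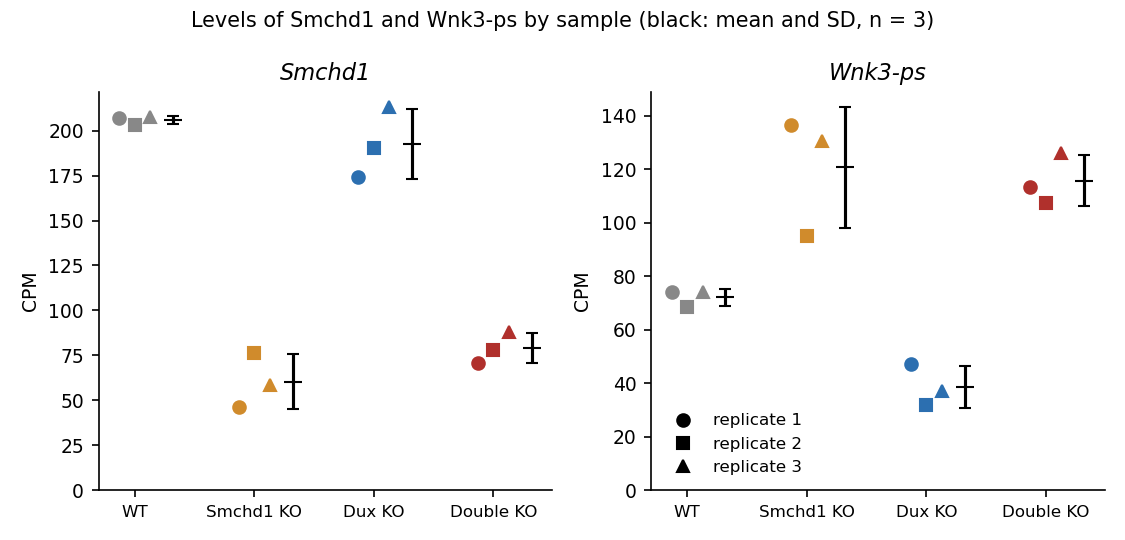
Levels of Smchd1 (left) and Wnk3-ps (right) in CPM in each sample of the 4 genotypes, with symbols by replicate number and the mean and SD (n = 3) in black. Smchd1 ran from 174 to 213 CPM in Dux KO and from 71.0 to 87.9 CPM in Double KO, and Wnk3-ps from 31.7 to 47.1 CPM in Dux KO and from 107 to 126 CPM in Double KO.

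Genes of the 2-cell embryo were almost silent in both genotypes. DUX is known to bind a word of 2 parts, TGATT and ATCA with any 2 bases between them, and the promoters of the Zscan4 genes, zinc finger genes that mark the 2-cell stage, show it. The sequences below are 120 bases each, 150 to 31 bases before the annotated start, in the direction of transcription, from RefSeq on build GRCm38.p6. Capitals mark the match, which lies on the opposite strand in the Zscan4 genes and on the printed strand in Abcb5, a transporter gene of the same list.
Zscan4b, chr7:10905081-10905200, minus strand: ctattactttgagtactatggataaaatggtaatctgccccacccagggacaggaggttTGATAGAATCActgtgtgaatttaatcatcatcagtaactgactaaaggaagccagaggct
Zscan4c, chr7:11005595-11005714, plus strand: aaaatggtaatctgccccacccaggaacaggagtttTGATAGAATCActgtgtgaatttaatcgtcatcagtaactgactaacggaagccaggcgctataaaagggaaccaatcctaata
Zscan4d, chr7:11166179-11166298, minus strand: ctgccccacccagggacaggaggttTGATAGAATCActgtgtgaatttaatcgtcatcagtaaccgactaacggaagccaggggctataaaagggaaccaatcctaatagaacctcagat
Zscan4f, chr7:11397765-11397884, plus strand: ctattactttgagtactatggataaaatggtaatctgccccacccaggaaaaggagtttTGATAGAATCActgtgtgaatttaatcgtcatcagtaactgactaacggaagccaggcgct
Abcb5, chr12:118966452-118966571, minus strand: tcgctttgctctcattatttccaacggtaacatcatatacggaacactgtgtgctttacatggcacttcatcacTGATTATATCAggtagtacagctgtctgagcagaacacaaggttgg

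The same word, TGATTCTATCA read on the opposite strand, stood in all 4 Zscan4 promoters of the RefSeq table. Searched on both strands of the 300-base promoters, the DUX word occurred in 5 of 22 promoters of 2-cell-stage genes (22.7%) and in 68 of all 32851 promoters (0.207%). Of the 5 matches, 4 were those of the Zscan4 genes, whose promoters are near copies with the same word, so they are not independent. The 22 promoters belong to 20 genes of the list. A match describes these letters and is not a measured binding site.

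The list of 2-cell-stage genes had 50 entries in the table, and 30 of them had no reads in any Dux KO or Double KO sample. A gene with no reads in a genotype had a level of up to 0.0694 CPM in Dux KO and 0.0608 CPM in Double KO, if a limit of 3 reads over the genotype is taken (counting error alone). Zscan4e, for example, had no reads in any of the 6 samples, against means of 1.56 (WT) and 9.42 CPM (Smchd1 KO). Zscan4c had no reads in Dux KO and 0, 0.0612 and 0.0594 CPM in Double KO. Zscan4d had no reads in 5 of the 6 samples and 0.119 CPM in Double KO replicate 3. Gm5662, Gm8300, Gm8994 and BB287469 (ENSMUSG00000071217.2) stood between 12.05 and 20.6 CPM on average in Smchd1 KO. Their highest value in any Dux KO or Double KO sample was 0.183 CPM, that of Gm5662 in Double KO replicate 2.

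Zfp951 and Usp26 were the exceptions, with levels that the tests could use, and they were set aside after their values were seen. Zfp951 is a zinc finger gene, with 15.2, 9.41 and 0.393 CPM in Dux KO and 6.81, 1.53 and 35.5 CPM in Double KO. It varied from sample to sample without regard to genotype, and the groups overlapped (log2 difference 0.65, 95% interval -1.95 to 3.24). Usp26, an X-linked deubiquitinase gene, had 1.04, 1.24 and 4.13 CPM in Dux KO and 1.49, 2.75 and 1.19 CPM in Double KO. Its groups overlapped too, and the sign of both genes' differences turned with the samples left out.

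A residue of reads was seen in the other 48 entries. Their summed level was 0.522, 0.206 and 0 CPM in Dux KO and 0.557, 1.10 and 1.54 CPM in Double KO, so the groups did not overlap, but the nearest samples were 0.557 and 0.522 CPM. This was 10 reads in all in Dux KO and 53 in Double KO, over 6 and 18 entries. Of the 48 entries, 16 had more reads in Double KO and 0 had more in Dux KO, but the Double KO libraries were deeper on average. The same count was not taken over all genes, and entries of near-identical copies are not independent. It therefore describes these few reads alone. No entry went over 8 reads in Double KO, where Sp110 and Arg2 had 8 each. WT cells had a sum of 27.1 ± 1.22 CPM for the same entries, and Smchd1 KO cells 194 ± 70.7 CPM (SD, n = 3). All 48 entries were under the filter for low values, so the difference between Dux KO and Double KO was not tested. Many of these genes belong to families of near-identical copies. Of the members, 18 were found to share under 50% of their 50-base words with another gene. The others shared more or could not be measured, and the level of a single copy is uncertain for them.

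**Figure D2:**
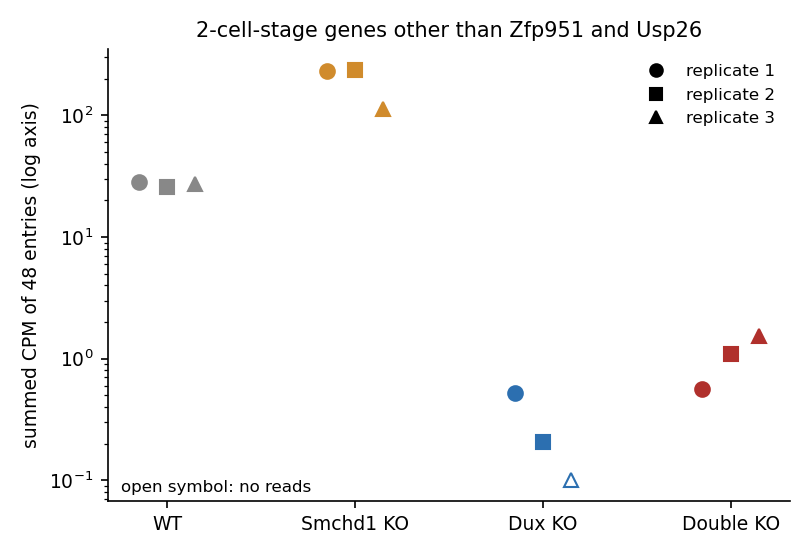
Summed CPM of 48 2-cell-stage entries in each sample of the 4 genotypes, on a log axis, with symbols by replicate number. Dux KO samples lay at 0.522, 0.206 and 0 CPM (the open symbol at the foot of the axis has no reads) and Double KO samples at 0.557 to 1.54 CPM, against means of 27.1 CPM for WT and 194 CPM for Smchd1 KO.

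The effect of losing Smchd1 was then compared between cells with and without Dux, as the difference (Double KO minus Dux KO) minus (Smchd1 KO minus WT) on the log2(CPM + 0.5) scale. In this fit of 12 samples, 32 of the 2-cell-stage entries could be tested. The difference was below 0 in 32 of 32, and 23 passed limma's adjusted p of 0.05, all below 0. Over all 16200 genes 0.358% passed below 0 and 0.154% above 0. The median difference of the 32 was -1.92, beside a median Smchd1 effect of 2.02 in cells with Dux, and over all genes the median difference was -0.02. Among the members, the difference was -2.27 for Zscan4c (adjusted p = 0.0328), -1.98 for Zscan4d (adjusted p = 0.0412) and -2.73 for Gm5662 (adjusted p = 0.0224), by limma. All but Zfp951 and Usp26 of these entries passed the filter through WT and Smchd1 KO alone. With levels near 0 in both genotypes without Dux, their difference is the Smchd1 effect in cells with Dux with its sign turned (2.19 and -2.19 for Zscan4e). Their direction was thus set by the choice of members, and the counts describe these samples and are no independent test.

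The count of 23 was sensitive to the fit. It was 0 without WT replicate 1, 2 or 3 or Dux KO replicate 2, 1 without Smchd1 KO replicate 1 or 2 and 4 without Double KO replicate 1. EdgeR and DESeq2 each called 0. With a pseudocount of 0.1 the count was 1.

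Across the transcriptome, no gene passed the threshold between Double KO and Dux KO. Genes were kept at 0.5 CPM or more in 3 or more of the 6 samples, and of the 15654 kept 0 (0%) had a limma adjusted p under 0.05, and edgeR also called 0. At an unadjusted p under 0.05, limma had 300 genes higher (1.92%) and 225 lower (1.44%) in Double KO. Groups did not overlap in 462 genes higher (2.95%) and 482 lower (3.08%) in Double KO. DESeq2 called 7 genes: Smchd1 lower, and Wnk3-ps, Col3a1, Col5a2, Nes, S100a6 and Shisa6 higher. All genes named from here on, unless a call is given, did not pass, and their values describe these 6 samples.

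The smallest p-value of the comparison belonged to an X-linked entry, Wnk3-ps (ENSMUSG00000041245.6), chosen after its values were seen. GENCODE M21 gives that identifier to Wnk3, a kinase gene of the WNK family, which regulates ion transport. It had 47.1, 31.7 and 37.2 CPM in Dux KO and 113, 107 and 126 CPM in Double KO. The groups were far apart, with a gap between the highest Dux KO and the lowest Double KO sample wider than the range of either. The log2 difference was 1.58 ± 0.20 (SE), with unadjusted p = 1.53e-05 and limma adjusted p = 0.240. With the spread pooled over 4 genotypes the adjusted p was 0.00719, and in DESeq2 it was 6.12e-07. WT had 72.1 ± 3.23 CPM and Smchd1 KO 121 ± 22.5 CPM (SD, n = 3), and the difference between the 2 Smchd1 effects did not pass (0.86, limma adjusted p = 0.110).

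Whole chromosomes differed between samples of the same genotype. For each sample, the median over the genes of a chromosome of the log2 difference from the WT mean was taken. This median was -0.43 on chromosome 6 in Dux KO replicate 2, -0.47 on chromosome 8 in Dux KO replicate 3, and 0.46 on chromosome 1 and -0.49 on chromosome 6 in Double KO replicate 3. Dux KO replicate 1 stood at -0.23 on chromosome 6 and -0.26 on chromosome 12. The other 114 medians of the 6 samples ran from -0.19 to 0.13. Double KO replicates 1 and 2 had no median beyond 0.2 in size. Chromosome 1 also held 63 of 842 genes with an unadjusted p under 0.05 (7.48%), against 3.35% over all genes. Col3a1, Col5a2, Tgfb2 and E330020D12Rik, named below, lie there. With the chromosome medians of each sample set to 0, their log2 differences were 2.38, 2.14, 1.95 and -1.49, beside 2.40, 2.16, 1.97 and -1.47. Among the samples of the other genotypes, Smchd1 KO replicate 2 stood at -0.45 on chromosome 6.

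**Figure D3:**
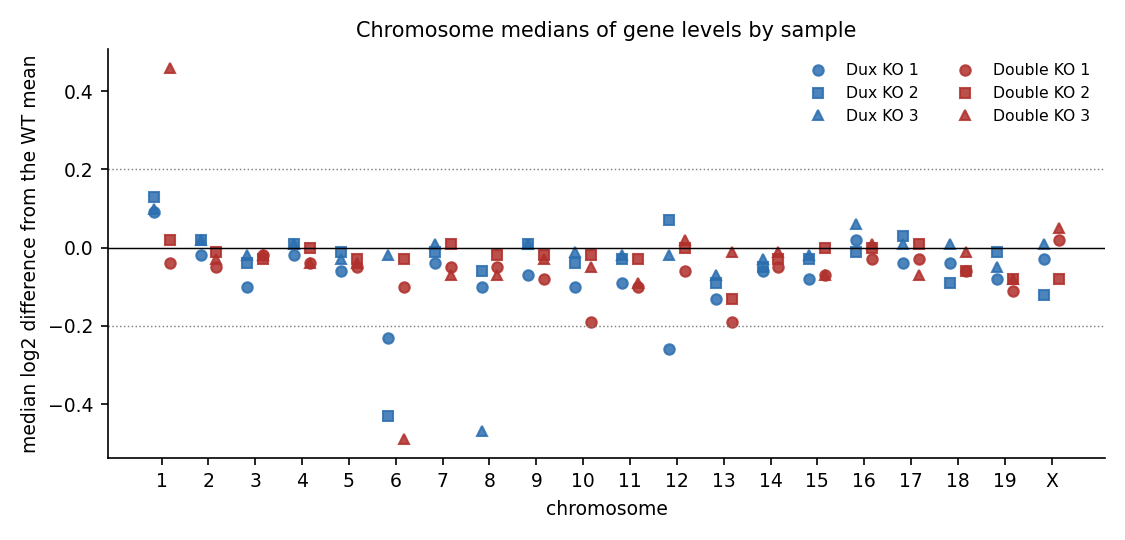
Median log2 difference from the WT mean over the genes of each chromosome, for the 3 Dux KO samples (blue) and the 3 Double KO samples (red), with dotted lines at 0.2 and -0.2. Double KO replicate 3 stands at 0.46 on chromosome 1 and -0.49 on chromosome 6, and Dux KO replicate 3 at -0.47 on chromosome 8.

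Several collagen genes were among those that were higher in Double KO. The largest differences were taken among genes whose groups did not overlap, with a mean of at least 1 CPM and an unadjusted p under 0.05, 12 in each direction. Of the 12 higher genes, Col3a1, Col5a2, Col12a1 and Col1a1 encode fibrillar or fibril-associated collagens. Col3a1 (chromosome 1) had 0, 0.0687 and 0.721 CPM in Dux KO and 4.33, 2.32 and 3.27 CPM in Double KO, a log2 difference of 2.40 (limma unadjusted p = 0.000165, adjusted p = 0.859). It was low in every sample, but the lowest Double KO sample was above the highest Dux KO sample. Col1a1 (chromosome 11), the main collagen of connective tissue, had 1.79, 2.88 and 10.6 CPM in Dux KO and 18.7, 12.7 and 13.0 CPM in Double KO (log2 difference 1.78). Col5a2 and Col12a1 differed by 2.16 and 2.43 on the log2 scale. Dux KO replicate 3 lay nearest to Double KO in all of these collagens.

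The other higher genes were of mixed kinds. Cav1, which encodes the coat protein of caveolae, had 0.149, 0 and 1.25 CPM in Dux KO and 10.02, 2.63 and 3.09 CPM in Double KO (log2 difference 2.57). Vgf, which encodes a secreted neuropeptide precursor, had 0.969, 1.24 and 4.33 CPM in Dux KO and 35.6, 8.99 and 5.29 CPM in Double KO (2.44). Tgfb2, a ligand of the TGF-beta pathway, had 1.72, 0.343 and 4.46 CPM against 14.5, 4.59 and 6.77 CPM (1.97). Dux KO replicate 3 nearly reached the lowest Double KO sample. Wisp1, a secreted protein of the CCN family, differed by 2.24, Gbp1, an interferon-inducible GTPase, by 2.28, Pcdh18, a protocadherin outside the clusters, by 1.97, and Zfp703, a transcriptional repressor, by 1.97. Shisa6, an auxiliary subunit of glutamate receptors, was the gene with the lowest Dux KO levels, all at or under 0.137 CPM, against 5.45, 0.979 and 0.832 CPM in Double KO (log2 difference 1.94). It passed the filter for low values through its Double KO samples alone, so its direction was set by that filter. Double KO replicate 1 was the highest Double KO sample in 12 of these 12 genes, and Dux KO replicate 3 the highest Dux KO sample in 11.

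The 12 lower genes were of many kinds and included genes of meiosis and sperm. Hormad1, a protein of the meiotic chromosome axis, had 41.8, 39.3 and 25.4 CPM in Dux KO and 4.46, 18.0 and 22.9 CPM in Double KO (log2 difference -1.45). Tuba3a, a testis tubulin, had 23.2, 26.2 and 47.1 CPM against 3.16, 18.3 and 19.5 CPM (-1.49). Zan, a sperm protein that binds the egg coat, had 13.0, 10.1 and 6.69 CPM against 1.30, 4.59 and 3.45 CPM (-1.61). In these 3 genes Double KO replicate 1 was the lowest of the 6 samples. Gpx2, a glutathione peroxidase, had 32.7, 7.90 and 9.18 CPM in Dux KO and 4.21, 4.16 and 2.67 CPM in Double KO (-1.76), with Dux KO replicate 1 far above the rest. Prmt8, a protein arginine methyltransferase, had 17.1, 48.1 and 22.8 CPM against 3.65, 16.1 and 7.01 CPM (-1.75). Lims2, an adaptor of integrin adhesions, had 2.76, 3.37 and 3.54 CPM against 1.30, 1.10 and 0.535 CPM (-1.36). Klk1, a tissue kallikrein, had 1.94, 2.34 and 2.098 CPM against 0.309, 0.917 and 0.297 CPM (-1.43). Differences were -1.64 for Ceacam20, -1.54 for Megf11, -1.29 for the homeobox gene Nkx6-3, -1.47 for E330020D12Rik and -1.38 for a Y_RNA entry (ENSMUSG00000065701.1). Double KO replicate 1 was the lowest Double KO sample in 7 of the 12.

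**Figure D4:**
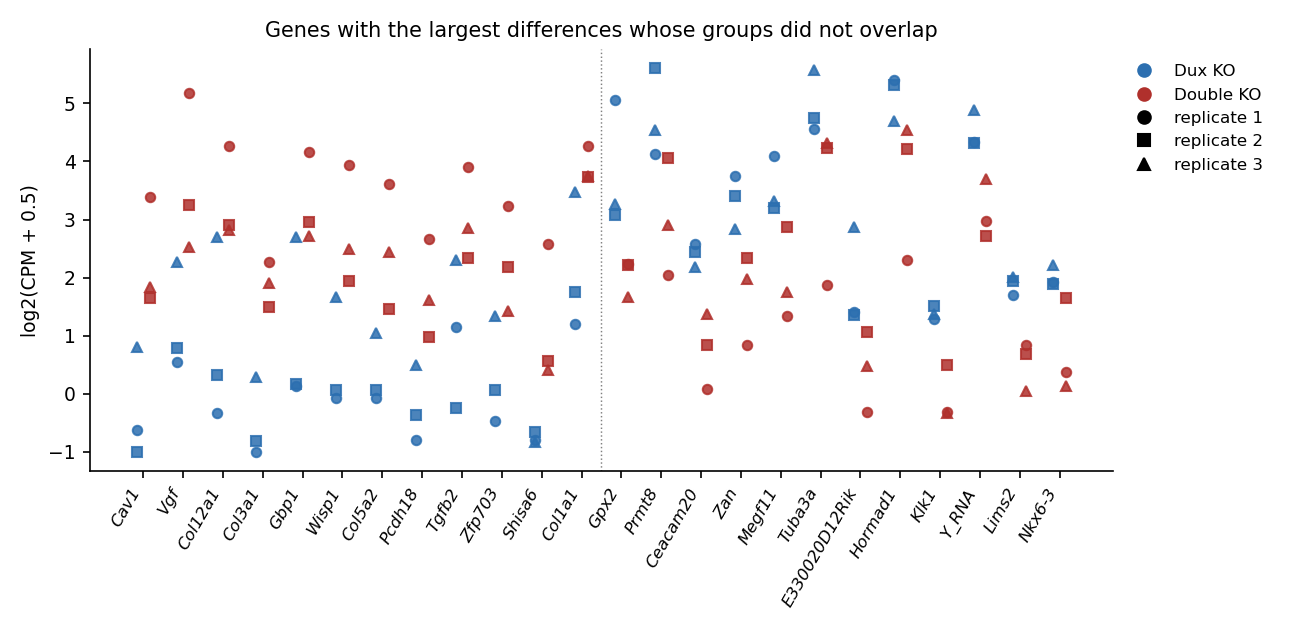
Levels of the 12 genes with the largest differences upward (left of the dotted line) and downward (right), as log2(CPM + 0.5), in the 3 Dux KO samples (blue) and the 3 Double KO samples (red), with symbols by replicate number. Groups do not overlap in any gene by the rule that chose them, and Double KO replicate 1 is the highest Double KO sample in 12 of the 12 genes on the left.

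Markers of differentiated cells were higher in some Double KO samples. In the list of fibroblast and matrix genes, 14 were tested, 6 had an unadjusted p under 0.05 and a higher level in Double KO (1.92% over all genes), 13 had a difference above 0 (46.7% over all genes) and the median log2 difference was 0.81 (-0.02 over all genes). Groups did not overlap in 3 of the 14 (2.95% over all genes in that direction), Col3a1, Col1a1 and Vim. Col3a1 and Col1a1 are also among the 12 higher genes above, which were chosen for groups that did not overlap. Vim, which encodes the intermediate filament of mesenchymal cells, had 55.3, 66.1 and 87.9 CPM in Dux KO and 143, 116 and 110 CPM in Double KO (log2 difference 0.83). Col1a2 had 0.149, 0.755 and 5.57 CPM against 24.1, 14.7 and 4.40 CPM (2.84), so that its groups overlapped. Fn1, the fibronectin gene, was at 940.4 to 1215 CPM in Dux KO and 1085 to 1272 CPM in Double KO, a difference of 0.13 (95% interval -0.35 to 0.62). The smooth muscle genes Acta2 and Tagln separated Dux KO replicate 3 from its fellow replicates. Acta2 had 0.298, 1.03 and 77.9 CPM in Dux KO and 36.4, 22.8 and 38.2 CPM in Double KO, and Tagln had 2.54, 3.09 and 79.8 CPM against 101, 32.1 and 64.9 CPM. Without Dux KO replicate 3, limma called Acta2 (adjusted p = 0.0223) and the skeletal actin gene Acta1 (adjusted p = 0.0479) and no other gene. The 8 markers of fibroblasts summed to 11.8, 17.5 and 34.6 CPM in Dux KO and to 57.4, 49.4 and 31.3 CPM in Double KO, and Dcn and Lum, which define mature fibroblasts, had no reads in either genotype.

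In the trophoblast list, 10 genes were tested, 6 had an unadjusted p under 0.05 and a higher level in Double KO (1.92% over all genes), and the median log2 difference was 1.63. The groups overlapped in all 10. Krt8 and Krt18 encode the paired keratins of simple epithelia. Krt8 had 15.5, 10.4 and 79.1 CPM in Dux KO and 301.7, 61.6 and 63.2 CPM in Double KO, and Krt18 had 13.3, 8.997 and 117 CPM against 386, 73.8 and 83.1 CPM. Double KO replicate 1 was the highest of the 6 samples, and Dux KO replicate 3 stood among the Double KO samples. Cdx2, the transcription factor that specifies trophectoderm, had 0.0746, 0 and 0.721 CPM against 8.66, 0.550 and 1.604 CPM, and Gata3 had 0.224, 0.137 and 2.75 CPM against 9.16, 1.53 and 2.79 CPM. Without Double KO replicate 1 the median of the list was 0.98. The 6 markers of trophoblast summed to 3.13, 3.57 and 18.2 CPM in Dux KO and 65.3, 12.9 and 13.8 CPM in Double KO. Dux KO replicate 3 was thus above Double KO replicates 2 and 3. Among these markers Tpbpa, which defines later trophoblast, had no reads in either genotype.

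Endoderm genes varied widely within each genotype. Of 19 tested, none had an unadjusted p under 0.05 in limma, and the median log2 difference was -0.52, which turned to 0.04 without Double KO replicate 3 and to 0.40 with sample weights. Lama1, a laminin of the basement membrane, had 347, 239 and 702 CPM in Dux KO and 934, 160 and 39.5 CPM in Double KO. Cubn, an endocytic receptor of visceral endoderm, had 135, 50.5 and 191 CPM against 196, 26.5 and 6.71 CPM. The endoderm transcription factor Gata6 showed the same order of samples, with 8.35, 2.82 and 20.1 CPM against 24.999, 2.63 and 1.01 CPM. Double KO replicates 1 and 3 were thus at the opposite ends of the range in each of the 3 genes. The 7 markers of extraembryonic endoderm summed to 27.4, 14.1 and 71.8 CPM in Dux KO and 91.5, 14.1 and 6.83 CPM in Double KO. Afp had no reads in Dux KO.

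Of 11 mesoderm genes tested, 2 had an unadjusted p under 0.05 and were higher in Double KO (1.92% over all genes): Cdx2 and Sp5, a target of WNT signalling (0.597, 0.824 and 0.393 CPM against 2.66, 0.917 and 2.61 CPM). Cdx2 is also given above with the trophoblast genes. The 5 mesoderm markers summed to 2.54 to 3.999 CPM in Dux KO and 2.94 to 7.18 CPM in Double KO. Of 7 ectoderm genes, Nes alone had an unadjusted p under 0.05, and it was higher in Double KO (1.92% over all genes). Nes encodes nestin, the intermediate filament of neural progenitors, and had 12.9, 19.2 and 26.9 CPM in Dux KO and 75.9, 39.0 and 56.1 CPM in Double KO (log2 difference 1.52 ± 0.32, SE). Its DESeq2 adjusted p was 0.0311. The ectoderm markers summed to 84.2, 112 and 60.5 CPM in Dux KO and to 61.8, 72.7 and 135 CPM in Double KO, so the groups overlapped there.

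Of 19 naive pluripotency genes tested, 3 had an unadjusted p under 0.05 and a lower level (1.44% over all genes), and 0 were higher at that p. A difference above 0 was seen in 5 (46.7% over all genes), and the median log2 difference was -0.23. Groups did not overlap in 3 of the 19, all lower (3.08% over all genes in that direction). Fgf4, the growth factor that ES cells secrete, had 271, 384 and 288 CPM in Dux KO and 143, 244 and 146 CPM in Double KO, with no overlap (log2 difference -0.85). Nanog had 480, 432 and 440 CPM against 181, 330 and 427 CPM, and Klf4 had 218, 155 and 118 CPM against 114, 107 and 114 CPM. In both the groups were separate, but by narrow gaps, and the unadjusted limma p was 0.0618 for Nanog and 0.0511 for Klf4. Tbx3 (194, 136 and 113 CPM against 70.7, 70.6 and 127 CPM) and Dppa5a (445, 357 and 616 CPM against 280, 379 and 224 CPM) overlapped. Pou5f1, which encodes OCT4, had 548, 481 and 460 CPM in Dux KO and 364, 375 and 623 CPM in Double KO, a difference of -0.17. Among 21 core and primed pluripotency genes the median was 0.19, and 1 was higher at an unadjusted p under 0.05 (1.92% over all genes). This was Lef1, a transcription factor of WNT signalling (13.2, 7.49 and 2.56 CPM against 27.7, 9.66 and 16.5 CPM). Otx2 was at 39.1 CPM in Double KO replicate 3 and between 5.97 and 12.8 CPM in the other 5 samples.

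**Figure D5:**
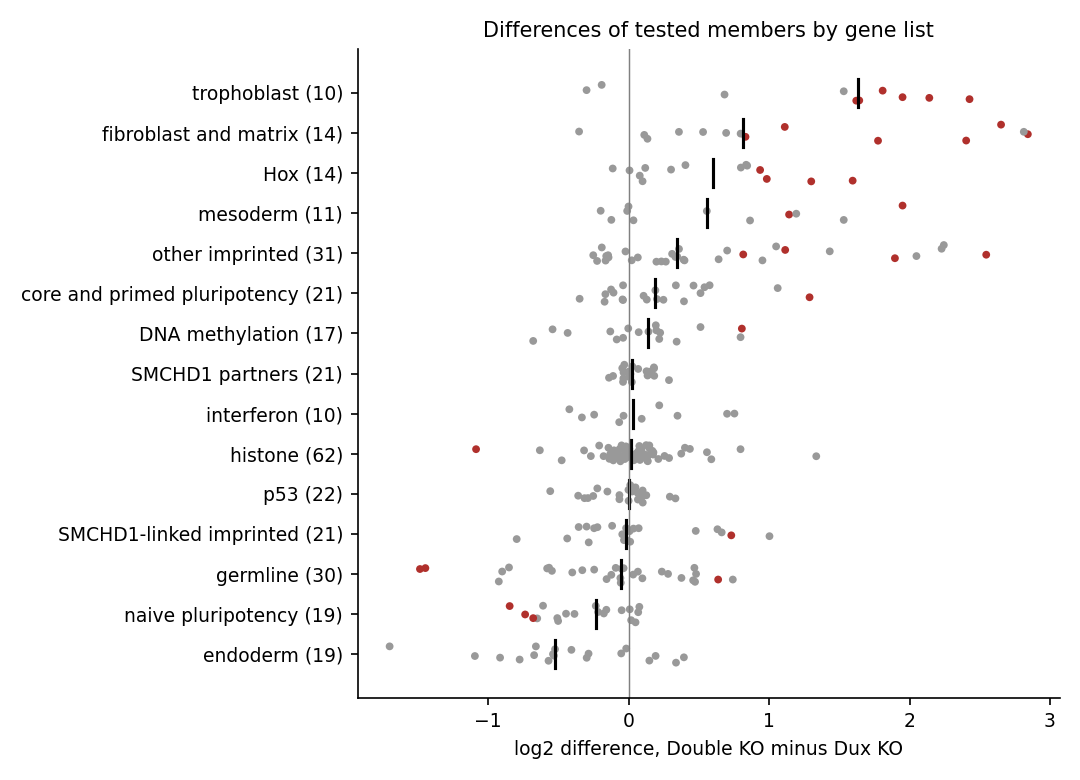
Log2 difference between Double KO and Dux KO for every tested member of 15 gene lists, with the number of tested members in brackets. Each dot is a gene (red at an unadjusted limma p under 0.05), vertical position within a row is random, and the black bar is the median, which is 1.63 for trophoblast genes and -0.52 for endoderm genes.

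Hox genes, which pattern the body axis, are among the clustered genes that SMCHD1 is known to act on. In this list 14 were tested, 4 were higher at an unadjusted p under 0.05 (1.92% over all genes), 13 had a difference above 0 (46.7% over all genes), and the median log2 difference was 0.60 (0.28 without Double KO replicate 1). All 4 lie in the HoxA cluster on chromosome 6. Hoxa7 had 0.597, 0.549 and 0.852 CPM in Dux KO and 2.72, 1.65 and 2.85 CPM in Double KO. Hoxa3 (ENSMUSG00000079560.5) had 0.671, 0.618 and 0.590 CPM against 2.04, 1.22 and 1.78 CPM, and Hoxa5 had 0.224, 0.412 and 0.262 CPM against 0.866, 0.979 and 1.43 CPM. Hoxa9 had no reads in 2 Dux KO samples, 0.131 CPM in Dux KO replicate 3, and 2.72, 0.734 and 0.594 CPM in Double KO. Groups did not overlap in 4 of the 14 tested Hox genes, these same 4 (2.95% over all genes in that direction). Hoxa5 and Hoxa9 passed the filter through their Double KO samples alone, so the filter itself favoured a higher level there. Over the 19 Hox genes kept by the filter on 12 samples, the median difference was 0.30. Without genes of chromosomes 1, 6, 8 and 12 the median of the remaining Hox genes was 0.10. With the chromosome medians of each sample set to 0, the differences of Hoxa7 and Hoxa3 were 1.28 and 0.92, beside 1.30 and 0.94.

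The 4 HoxA genes were the Hox genes that passed the test of a different Smchd1 effect. In cells with Dux, Hoxa3 was lower without Smchd1 (limma adjusted p = 0.00994), and Hoxa7 (0.0720), Hoxa5 (0.0620) and Hoxa9 (0.186) did not pass that test by the same adjusted p. Hoxa7 had 1.76 ± 0.222 CPM in WT and, without Smchd1, 0.644 ± 0.251 CPM, and Hoxa3 had 2.17 ± 0.370 and 0.595 ± 0.167 CPM (SD, n = 3). The Dux KO means of these 2 genes, 0.666 ± 0.163 and 0.626 ± 0.0412 CPM, lay by those of Smchd1 KO, and the Double KO means, 2.41 ± 0.659 and 1.68 ± 0.418 CPM, by those of WT. The difference of the effects was 2.30 for Hoxa7 (adjusted p = 0.0224), 2.23 for Hoxa3 (adjusted p = 0.0181), 1.89 for Hoxa5 (adjusted p = 0.0236) and 2.59 for Hoxa9 (adjusted p = 0.0355), all by limma. With the chromosome medians of each sample set to 0, Hoxa7, Hoxa3 and Hoxa9 each had a limma adjusted p of 0.0342 and Hoxa5 did not pass (1.72, adjusted p = 0.0685). Without Smchd1 KO replicate 2, which was low on chromosome 6, the differences were 1.90 to 2.48 and none of the 4 passed (limma adjusted p from 0.0743 to 0.109). Over all genes, 83 passed this test (0.512%), 58 below 0 and 25 above 0. That count was 4 without Smchd1 KO replicate 2 and also 4 without Smchd1 KO replicate 1, which was at -0.01 on chromosome 6.

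Other genes of known function passed it as well, and those without a list were chosen after their values were seen. In the order WT, Smchd1 KO, Dux KO, then Double KO, Spna1, which encodes the spectrin of red blood cells, had means of 62.1 ± 3.802, 15.7 ± 2.96, 14.7 ± 1.01 and 29.4 ± 11.9 CPM (SD, n = 3; difference 2.86, limma adjusted p = 0.0181). Mat2a, which makes S-adenosylmethionine, the methyl donor of the cell, had 525, 245, 371 and 451 CPM on average in the same order (1.43, adjusted p = 0.0397), and Mthfd2, a mitochondrial folate enzyme, had 250, 140, 89.5 and 140 CPM (1.46, adjusted p = 0.0416). In the opposite direction, Klk1 had 1.26, 3.32, 2.12 and 0.508 CPM (-2.54, adjusted p = 0.0181), Dpys, an enzyme of pyrimidine breakdown, had 9.04, 27.5, 17.3 and 8.06 CPM (-2.68, adjusted p = 0.0355), Serpinb6c, a protease inhibitor, had 4.63, 10.3, 10.8 and 4.97 CPM (-2.08, adjusted p = 0.0236) and Ephx1, an epoxide hydrolase, had 8.84, 20.95, 20.8 and 11.2 CPM (-2.19, adjusted p = 0.0412). Mat2a and Mthfd2 lie on chromosome 6, and with the chromosome medians set to 0 neither passed (1.25 and 1.29, limma adjusted p = 0.0892 and 0.0635). In these 7 genes the mean Smchd1 effect had opposite signs with and without Dux, but none passed on its own between Double KO and Dux KO. The groups of Mat2a overlapped there. In cells with Dux, Spna1, Mat2a and Serpinb6c passed (limma adjusted p = 0.00211, 0.0176 and 0.0477), and Klk1, Dpys, Ephx1 and Mthfd2 did not. The count of 83 was not stable. Leaving out 1 sample gave 0 (WT replicate 1, 2 or 3, or Dux KO replicate 2), 4 (Smchd1 KO replicate 1 or 2), 38 (Smchd1 KO replicate 3), 19 (Double KO replicate 1), 154 (Double KO replicate 3), 211 (Dux KO replicate 3), 675 (Dux KO replicate 1) and 1216 (Double KO replicate 2), and edgeR called 7 and DESeq2 946.

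The DNA methylation machinery held 1 of these genes. Dnmt3a, which encodes a methyltransferase that sets new methylation, had 146, 126 and 185 CPM in Dux KO and 288, 212 and 300 CPM in Double KO, with no overlap (log2 difference 0.81 ± 0.21, SE, unadjusted p = 0.00390). WT had 371 ± 3.75 CPM and Smchd1 KO 251 ± 45.9 CPM, and the difference of the effects was 1.39 (limma adjusted p = 0.0358). Of 17 genes of this list, Dnmt3a alone had an unadjusted p under 0.05 (3.35% over all genes), and the median difference was 0.14. Dnmt3b, the related enzyme, had 163, 105 and 218 CPM against 365, 153 and 195 CPM, and Dnmt3l, their cofactor, 202, 105 and 287 CPM against 141, 101 and 104 CPM. The groups of both overlapped. Dppa3, which protects methylation in the early embryo, had 2.39, 3.64 and 14.3 CPM against 8.04, 15.6 and 6.24 CPM. None of 21 genes for partners of SMCHD1 and other silencing factors had an unadjusted p under 0.05 in limma, and their median difference was 0.02.

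Imprinted genes that have been linked to SMCHD1 did not move together. Of 21 tested, Ndn alone had an unadjusted p under 0.05 (3.35% over all genes). A difference above 0 was seen in 9 (46.7% over all genes), and the median was -0.02. Ndn, of the Prader-Willi region, had 7.01, 8.38 and 9.37 CPM in Dux KO and 13.2, 12.3 and 16.7 CPM in Double KO (log2 difference 0.73, 95% interval 0.12 to 1.34). Airn, the noncoding RNA of the Igf2r cluster, was at 6.25 CPM in Double KO replicate 1 and between 0.687 and 1.41 CPM in the other 5 samples. Slc22a18 had 4.62, 5.84 and 2.43 CPM against 2.72, 3.91 and 0.772 CPM, with overlap. Of 31 other imprinted genes, 4 were higher at an unadjusted p under 0.05 (H19, Igf2, Pon2 and Pon3; 1.92% over all genes), with a median of 0.35. Pon2 and Pon3, neighbouring paraoxonase genes on chromosome 6, did not overlap (7.53, 4.53 and 5.31 CPM against 22.7, 8.44 and 11.0 CPM, and 1.27, 1.85 and 1.51 CPM against 3.22, 3.85 and 2.32 CPM). Without genes of chromosomes 1, 6, 8 and 12 the median was 0.04.

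The imprinted growth genes showed wide spread between samples. Igf2, a growth factor, had 19.6, 13.4 and 110 CPM in Dux KO and 521, 130 and 90.2 CPM in Double KO, and H19, the noncoding RNA beside it, had 2.61, 1.10 and 1.25 CPM against 10.5, 13.3 and 2.44 CPM. The groups of both genes overlapped, those of H19 by Double KO replicate 3 alone. Peg10, a retrotransposon-derived gene, had 424, 297 and 1367 CPM against 4804, 1342 and 525 CPM. The noncoding RNAs of the Dlk1 to Dio3 region on chromosome 12 were nearly absent from Dux KO replicate 1. Meg3 had 2.39, 281 and 231 CPM in Dux KO and 331, 308 and 195 CPM in Double KO, Rian had 3.13, 341 and 440 CPM against 392, 376 and 379 CPM, and Mirg had 0.597, 21.9 and 30.3 CPM against 48.7, 30.9 and 34.2 CPM. The low values were those of 1 sample, which was also at -0.26 on chromosome 12, and without that sample the differences were 0.09 for Meg3, -0.02 for Rian and 0.52 for Mirg. The groups of Mirg did not overlap with all 6 samples.

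Xist, the RNA that coats the inactive X chromosome, was low in all samples, with 15.5, 5.43 and 2.23 CPM in Dux KO and 5.14, 2.69 and 1.13 CPM in Double KO. Of 40 entries of X-linked gene families, 7 could be tested and none had an unadjusted p under 0.05 in limma. Xlr3a, of the lymphocyte-regulated family, was at 18.3 CPM in Double KO replicate 3, at 0.371 CPM in Double KO replicate 1 and between 2.10 and 3.91 CPM in the other 4 samples. Of 25 clustered protocadherins, cell adhesion genes that SMCHD1 binds, 2 could be tested. Pcdha11 had 0.820, 0.343 and 0.524 CPM against 1.05, 2.45 and 0.832 CPM, so that the groups were separate by a narrow gap (log2 difference 0.81, 95% interval -0.03 to 1.64).

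Of 30 germline genes tested, 2 were lower at an unadjusted p under 0.05 (Hormad1 and Tuba3a), against 1.44% over all genes. Tex15 alone was higher at that p (1.92% over all genes), and the median was -0.06. Tex15, a protein of meiotic repair and transposon silencing, had 25.9, 41.5 and 30.7 CPM in Dux KO and 48.7, 42.3 and 61.6 CPM in Double KO. The dipeptidase gene Dpep3 overlapped (2.01, 3.43 and 0.656 CPM against 0.557, 1.35 and 0.356 CPM). Targets of p53 (22 tested) and interferon genes (10 tested) had no member with an unadjusted p under 0.05 in limma, with medians of 0.01 and 0.03. Of 62 histone genes 1 did, Hist1h4n, which was lower (1.44% over all genes), and the median was 0.01. It had 5.52, 18.7 and 11.7 CPM against 3.65, 5.44 and 5.47 CPM.

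Of 17 mitochondrial transcripts tested, mt-Rnr2 alone had an unadjusted p under 0.05 and was lower (1.44% over all genes), 3 had a difference above 0 (46.7% over all genes), 2 were lower with no overlap (3.08% over all genes), and the median was -0.23. The 2 ribosomal RNAs varied widely between samples of 1 genotype. The transcript mt-Rnr1 had 392, 1220 and 6901 CPM in Dux KO and 1157, 286 and 386 CPM in Double KO, and mt-Rnr2 had 1631, 2414 and 5770 CPM against 1882, 1089 and 1058 CPM. Dux KO replicate 3 held the highest value of both.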

How the data were processed

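Total RNA of mouse ES cells was sequenced after depletion of ribosomal RNA. Per the submitters' processing notes, reads were trimmed with Trim Galore and aligned with STAR 2.5.1 to build mm9, and limma 3.38.2 was used. The read counter, strand setting and annotation are not given in the sources used here, so reads of overlapping or antisense genes cannot be told apart. The deposited signal is CPM of an effective library size, as the values show: dividing by the smallest step of a library turned 100% of its values up to 200 reads into whole counts (tolerance 0.1 read), and these recovered counts were used where a count test is named. Of 37310 entries, 34758 matched GENCODE M21 (GRCm38), which gave names and chromosomes. Gene coordinates are not printed, because that build differs from mm9.

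The 2 sequencing runs of each WT and Smchd1 KO replicate were averaged. The names of the Smchd1 KO columns do not say which 2 are runs of 1 replicate, and these were joined by their values (noise ratio 1.36 to 1.69 within pairs and 3.34 to 13.6 between). Noise ratios, in units of counting error, were 1.45 to 1.85 between WT replicates, 16.4 to 31.6 in Dux KO and 17.5 to 32.3 in Double KO. Nothing says that replicates were separate cultures, so p-values measure the spread between these samples.

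Log2(CPM + 0.5) of the 6 samples was fitted in limma 3.58.1 (R 4.3.3) with an intensity trend, for genes of at least 0.5 CPM in at least 3 of 6 samples. Tests are two-sided with Benjamini-Hochberg adjustment at 0.05, and fold changes of low genes are understated by the added 0.5. The pooled fit of 4 genotypes was an alternative, since the small WT spread would make it too confident here. It served for the difference of the 2 Smchd1 effects, in which all genotypes weigh equally. The fit takes the spread as equal, while the median SD ran from 0.05 in WT to 0.31 in Double KO. Its p-values may therefore be too small there as well. EdgeR 4.0.16 and DESeq2 1.42.0 on the recovered counts, other filters, pseudocounts, scalings, weights and samples left out were also run, and the fit was tested on simulated data. Of the 3 same-numbered pairs of Dux KO and Double KO samples, 1 deviated together (correlation 0.476 for replicate 2, against 0.0721 and -0.132), so the numbers were not taken as pairs.

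The members and lists were chosen with earlier results of these data known. Named genes are the targeted genes, the 12 largest differences in each direction among non-overlapping genes of at least 1 CPM, and, of each list, the 3 largest differences and the most abundant member. Of the last kind, those with small differences are given by counts alone. One gene that this rule chose is not reported here. Of the 2-cell-stage list, the 8 members highest in Smchd1 KO were taken. Hoxa5, Hoxa9, Vim, H19, Pon2, Pon3, Mirg, Klf4, Nanog, Pou5f1, Dnmt3b, Tex15, Sp5, Gata3, Gata6, S100a6 and Acta1 were added after their values were seen.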

Additional observations from a re-analysis of the deposited data

Results flagged for a closer look

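The effect of losing Smchd1 was tested for a difference between cells with and without Dux, and the genes below passed at a limma adjusted p of 0.05. Of the 2-cell-stage genes, 23 of 32 passed, all below 0 (0.358% over all genes in that direction). All but Zfp951 and Usp26 of the 32 passed the filter through WT and Smchd1 KO alone and were near 0 in both genotypes without Dux, so they could hardly come out above 0. The count fell to 0 without any 1 of the WT replicates or Dux KO replicate 2. Among them the difference on the log2(CPM + 0.5) scale was -2.73 for Gm5662, -2.57 for Gm8300, -2.53 for Gm8994, -2.46 for BB287469, -2.27 for Zscan4c, -2.19 for Zscan4e, -2.16 for Zscan4f, -1.98 for Zscan4d and -1.84 for Zscan4b.

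Klk1 (-2.54), Dpys (-2.68), Ephx1 (-2.19) and Serpinb6c (-2.08) were higher in Smchd1 KO than in WT on average and lower in Double KO than in Dux KO. The opposite held for Spna1 (2.86), Hoxa9 (2.59), Hoxa7 (2.30), Hoxa3 (2.23), Nes (2.10), Hoxa5 (1.89), Mthfd2 (1.46), Mat2a (1.43) and Dnmt3a (1.39). For Mat2a the difference between Double KO and Dux KO turned sign without the samples of a strong chromosome shift, a setting that leaves 1 Dux KO sample, replicate 1, which had 519 CPM against 281 and 312.5 CPM in the other Dux KO samples.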

How the results depend on the processing

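The count of 0 genes between Double KO and Dux KO held in 15 of 20 other settings. Sample weights and the fit of 4 genotypes each gave 2, with 1 higher (Wnk3-ps) and 1 lower (Smchd1), and DESeq2 gave 7, with 6 higher and 1 lower. Without the samples of a strong chromosome shift (Dux KO replicates 2 and 3 and Double KO replicate 3), chosen after seeing the data, 3 genes were higher (Meg3, Rian and Mirg), but the 1 Dux KO sample left, assumed to vary like the others, is replicate 1, where these RNAs are nearly absent, so the calls rest on that sample. It was itself at -0.23 on chromosome 6 and -0.26 on chromosome 12. Leaving out 1 replicate gave 0 to 2 genes, 0 to 2 higher. The replicate numbers did not pair the samples (correlations 0.07, 0.48 and -0.13), and with a replicate block the counts were 0 for the main comparison and 96 for the difference of the Smchd1 effects, beside 83. That count of 83 was 9 with a pseudocount of 0.1, 11 with a filter of 2 CPM, 2242 with sample weights, 7 in edgeR, 946 in DESeq2, 55 without genes of chromosomes 1, 6, 8 and 12, 1634 without the samples of a strong shift and 0 to 1216 with 1 replicate left out. The 23 genes of the 2-cell-stage list became 1, 4, 0 (edgeR), 0 (DESeq2), 15 and 11 in the same settings, weights aside, and 0 to 29 with 1 replicate left out. The cause was not tested, except that fewer genes are tested under a stricter filter and without genes of chromosomes 1, 6, 8 and 12. Called genes that lie on those chromosomes, among them Gm8994, Gm5662, Gm8300, BB287469 and Hoxa7, could not be counted in that setting. Of 89 named genes with a fit, 8 had the opposite sign in some setting. With sample weights Xlr3a was at -0.22, Usp26 at 0.29, Zfp951 at -0.47 and Gata6 at 0.60. Without the samples of a strong shift Lama1 was at 0.15, mt-Rnr1 at 0.55, Usp26 at 0.72, Zfp951 at -2.03, Mat2a at -0.24 and Gata6 at 0.013. With 1 replicate left out Rian ran from -0.018 to 3.44, Xlr3a from -0.53 to 1.68, Usp26 from -0.35 to 0.44, Zfp951 from -0.62 to 1.65 and Gata6 from -1.96 to 0.079. Depth limits the 2-cell-stage genes, where 3 reads over a genotype are 0.0694 CPM in Dux KO and 0.0608 CPM in Double KO.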
